A study of Mus musculus with 40 samples.

Results

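The genes of MHC class I antigen presentation were followed in 20 immortalised cell lines derived from the brown adipose tissue of C57BL/6 mice. The 10 genes were taken by symbol from the count tables, where all 10 were found among 29787 gene symbols, and all 10 passed the filter on low counts at both stages. Every line was sequenced once as undifferentiated preadipocytes and once at day 8 of adipocyte differentiation, so 20 libraries were paired with 20 by the line label. Differentiation was started with T3, insulin, dexamethasone, IBMX and indomethacin, and the first 2 stayed in the medium to day 8. The line names combine a letter (A, B, C or D) with a number. What the letter means is not in the labels, nor is how the lines were immortalised or whether a line is 1 clone. The labels name no repeat cultures of a line, so the spread between lines includes that of culture and library preparation.

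MHC class I molecules carry peptides of the cell's own proteins to its surface, where CD8+ T cells and natural killer cells read them. The heavy chains H2-K1 and H2-D1 pair with B2m, the light chain. The proteasome cuts proteins into peptides, and its 3 inducible subunits Psmb8, Psmb9 and Psmb10 replace the constitutive Psmb5, Psmb6 and Psmb7. Tap1 and Tap2 form the transporter that brings peptides into the endoplasmic reticulum, and Tapbp, tapasin, holds the transporter next to the empty heavy chain. Nlrc5 is a transactivator of several of these genes. It has no DNA-binding domain of its own and acts at the promoters of its targets through RFX, CREB/ATF and NF-Y proteins. Type I and type II interferons are known to raise all of these genes, and Ifit3, an antiviral protein that restricts translation of foreign RNA, served as the measure of the interferon-stimulated state of a line. Of the 31-base stretches of Ifit3 transcripts in GENCODE M21, 61.8% also occur in Ifit3b, and of those of 100 bases 31.7%, so its counts are uncertain in part.

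The promoters of 4 of the genes are shown because Nlrc5 and its partners act there and because H2-K1 and H2-D1 resemble each other in sequence. Each line below holds the 150 bases before the start of transcription, 5′ to 3′ on the strand of the gene, from RefSeq with build GRCm38.p6. Capitals mark the letters TGACG, the core of a CREB/ATF site, and in B2m also the letters GAAANNGAA, the core of an interferon-stimulated response element.
H2-K1, chr17:34000348-34000497, minus strand: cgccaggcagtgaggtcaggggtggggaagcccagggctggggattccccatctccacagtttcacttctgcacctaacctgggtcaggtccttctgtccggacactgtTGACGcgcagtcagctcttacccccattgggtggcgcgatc
H2-D1, chr17:35262944-35263093, plus strand: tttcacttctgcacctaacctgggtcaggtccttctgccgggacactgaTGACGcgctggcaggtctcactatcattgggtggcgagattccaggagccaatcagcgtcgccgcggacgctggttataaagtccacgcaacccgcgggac
B2m, chr2:122147537-122147686, plus strand: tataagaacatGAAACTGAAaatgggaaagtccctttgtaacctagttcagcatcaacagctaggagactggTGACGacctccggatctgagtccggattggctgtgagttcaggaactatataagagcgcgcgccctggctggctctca
Tap1, chr17:34187406-34187555, plus strand: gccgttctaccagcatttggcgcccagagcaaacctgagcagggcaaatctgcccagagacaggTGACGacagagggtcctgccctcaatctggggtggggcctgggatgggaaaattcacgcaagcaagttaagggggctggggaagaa
RefSeq promoters of 300 bases, from 250 before to 50 after the start, were at hand for 8 of the 10 genes. TGACG, searched on both strands, lay in 5 of the 8, against 20.8% of 32851 mouse promoters of that length. CCAAT, the core of the NF-Y site, lay in 6 of the 8, against 37.4%. GAAANNGAA lay in 1 of the 8 (B2m), against 8.56%, and in the promoter of Ifit3 it was found at 3 positions. Only this spelling was searched. The windows of H2-K1 and H2-D1 above both hold the letters tttcacttc, which do not match it on either strand and were not counted. A promoter without a match is therefore not shown to lack an interferon response element. TTCNNNGAA, the gamma-activated site, lay in 1 of the 8 (Psmb8), against 8.30%. Tap1 and Psmb9 are read in opposite directions from start sites 226 bases apart, and their 300-base promoters share 275 bases. The TGACG and the CCAAT of Tap1 are therefore also those of Psmb9, and each is counted for both genes. The longest run of bases identical in the promoters of H2-K1 and H2-D1 was 47. A match of letters is a description and does not show that a factor binds.

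Libraries held 19535806 to 28074918 gene counts in undifferentiated cells and 27181830 to 43113838 at day 8. Levels are CPM (counts scaled to library size) after TMM normalisation, with means ± SD taken over 20 lines, and are not divided by transcript length, so they compare libraries and not genes. The files of the 2 stages were counted differently: reads aligned to several places were 16.8% ± 0.456 of all tallied reads in undifferentiated libraries and 12.8% ± 1.02 at day 8, and the tallies of unaligned and low-quality reads were 0 at day 8. Stage and counting therefore cannot be told apart. The adipocyte label fitted its markers in most lines: 14 adipocyte genes summed to 74.3 to 620 CPM before and 990 to 16091 CPM at day 8, with C6 and D5 the lowest. Leukocyte markers were low at both stages. Ptprc, the pan-leukocyte CD45, had 12 counts over the 20 undifferentiated and 7 over the 20 day 8 libraries, Tyrobp and Emr1 had 0 in all 40, and 11 leukocyte genes together reached 3.49 to 7.56 CPM before and 2.70 to 10.2 CPM at day 8. Most of that sum was Cd68, a lysosomal protein of macrophages, at 3.78 ± 0.811 CPM before and 3.03 ± 1.93 CPM at day 8. Csf1r, a macrophage growth factor receptor, went from 720 to 345 counts over the 20 libraries, Itgam from 28 to 143 and Lyz2, lysozyme, from 47 to 1132, with Lyz2 higher at day 8 in 20 of 20 lines; their part in the stage differences was not tested. In bulk RNA, fewer cells of a type and less RNA per cell cannot be told apart.

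The first comparison was between undifferentiated and day 8 libraries. All 10 class I presentation genes rose, and each was higher at day 8 in 20 of 20 lines. Over all genes tested, 43.1% of 14081 rose. The median log2 fold change was 3.72 over the 10 genes and 0.04 over all genes. In 7 of the 10, the lowest day 8 library stood above the highest undifferentiated one, against 12.3% of all genes; the groups overlapped for B2m, Psmb8 and Nlrc5.

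Among the surface molecules, H2-K1 ranged in undifferentiated lines from 15.3 CPM (B3) over a median of 74.3 to 125 CPM (A3). At day 8 it ranged from 488 CPM (B6) over 1707 to 2461 CPM (B4). The log2 fold change was 4.48 (SE 0.21), which edgeR's quasi-likelihood test called with an adjusted p = 6.1e-22. The fold in single lines ran from 8.55 in A2 to 82.3 in B3. H2-D1 went from 60.5 to 195 CPM (median 117) before to 442 to 2237 CPM (median 1496) at day 8. It rose by 3.61 on the log2 scale (SE 0.17, adjusted p = 9.5e-22). B2m, already at 301 ± 44.6 CPM in undifferentiated lines, rose the least of the 10, to 1012 ± 286 CPM (log2 fold change 1.75, SE 0.12, adjusted p = 2.8e-17). Its day 8 level in B6, 339 CPM, lay below the 428 CPM of undifferentiated D1, which alone with B1 (390 CPM) stood above it, and the fold in B6 was 1.28. H2-K1 and H2-D1 are paralogs: 20.3% of the distinct 31-base stretches of H2-K1 transcripts in GENCODE M21 and 27.9% of those of H2-D1 occur in another gene, so part of their reads could be split or dropped. For stretches of 100 bases, the length of a read, these shares were 0% and 4.09%.

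The peptide transporter and its partner also rose. Tap1 stood at 18.6 ± 6.94 CPM before and 264 ± 116 CPM at day 8 (log2 fold change 3.83, SE 0.21, adjusted p = 1.2e-19, edgeR). Tap2 rose from 19.2 ± 7.90 to 144 ± 40.3 CPM and Tapbp from 86.3 ± 14.7 to 556 ± 103 CPM, with log2 fold changes of 2.90 (SE 0.18) and 2.69 (SE 0.09). Tapbp varied the least among lines at day 8, 2.13-fold from B6 to A3. Exons of Tap1 overlap those of Psmb9 on the other strand, and exons of Tap2, Tapbp, Psmb8 and Nlrc5 overlap antisense genes; Tapbp also overlaps Zbtb22 on its own strand. The strand setting of the counting is not given in the sources used here.

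All 3 inducible proteasome subunits rose. Psmb9 ranged from 0.309 CPM (C2, 7 counts) over 1.16 to 3.71 CPM (D1) in undifferentiated lines and from 29.8 CPM (B6) over 135 to 228 CPM (C2) at day 8. Its log2 fold change of 6.83 (SE 0.30, adjusted p = 5.0e-23, edgeR) was the largest of the 10, and the fold ran from 27.5 in B6 to 737 in C2. Psmb8 ranged from 0.390 CPM (B6) over 2.31 to 14.1 CPM (D1) before and from 5.42 CPM (B6) over 177 to 324 CPM (C2) at day 8, and it rose by 5.25 on the log2 scale (SE 0.43). B6 was the one day 8 library inside the undifferentiated range of Psmb8, and the next lowest, D6, was at 46.9 CPM. Psmb10 rose from 22.9 ± 5.78 to 94.2 ± 33.9 CPM (log2 fold change 2.04, SE 0.15, adjusted p = 3.3e-16). Of the constitutive subunits they replace, Psmb5 rose too, from 97.0 ± 14.9 to 168 ± 40.2 CPM (log2 fold change 0.79, SE 0.09). Psmb6 (0.05, SE 0.06, adjusted p = 0.475) and Psmb7 (0.00, SE 0.07, adjusted p = 0.969) did not pass the edgeR test.

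Nlrc5 ranged from 1.19 CPM (C2) over 3.17 to 16.4 CPM (D1) before differentiation and from 15.4 CPM (B6) over 70.2 to 156 CPM (C2) at day 8. The log2 fold change was 4.08 (SE 0.31, adjusted p = 2.3e-15, edgeR). Undifferentiated D1 and day 8 B6 were the libraries that crossed. Ifit3 itself stood at 1.55 ± 1.99 CPM before and 327 ± 243 CPM at day 8, with a log2 fold change of 7.72 (SE 0.59).

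**Figure D1:**
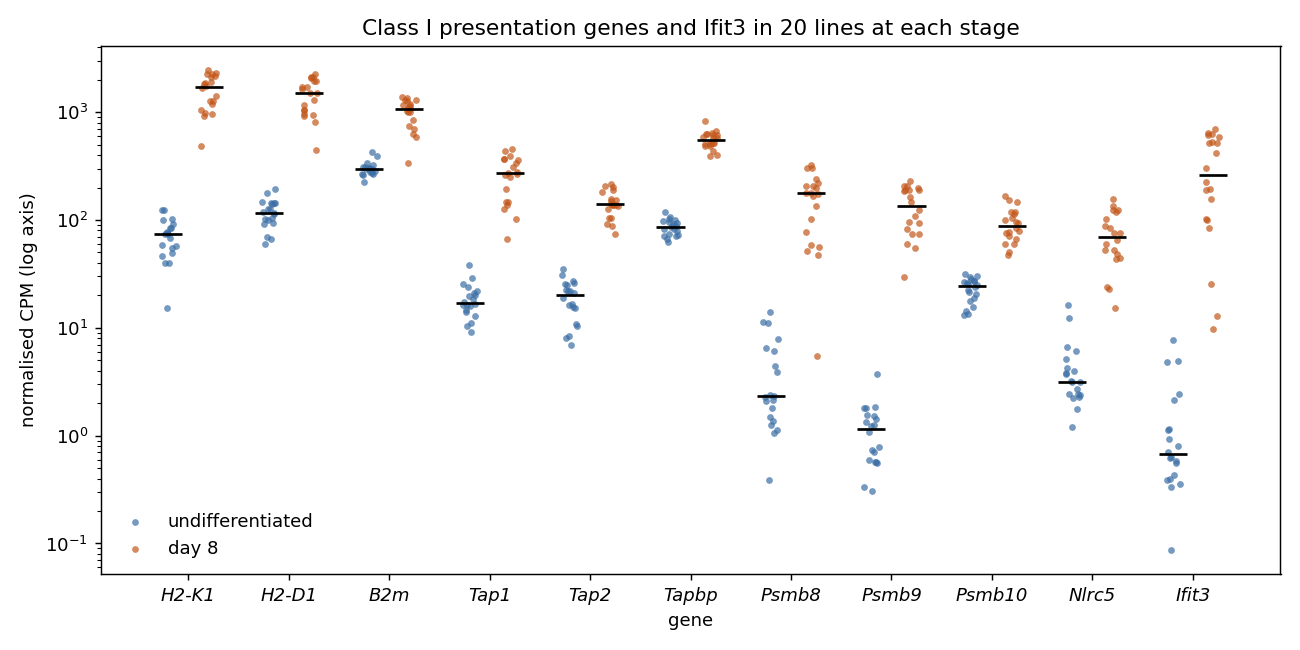
Normalised CPM on a log axis of the 10 class I presentation genes and Ifit3. Each point is 1 of 20 lines per stage (blue undifferentiated, orange day 8) and black bars are medians; the groups overlap for B2m, Psmb8 and Nlrc5 and are apart for the other genes shown.

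Genes around the pathway moved with the stage in different ways. Over all 14081 genes tested, 43.1% rose and 5493 fell, so the counts of the mixed lists below are not read as traits of those lists. Of the 13 tested other class I and class I-like genes, 13 rose. Only 8 of them passed the filter on low counts in undifferentiated libraries. The others (H2-Q6, H2-Q8, H2-Q9, H2-Q10 and H2-T10) entered the test through their day 8 counts, so their rise was largely fixed by the filter. H2-T23, which encodes the ligand Qa-1 of an inhibitory natural killer receptor, rose from a mean of 3.20 to 363 ± 169 CPM (log2 fold change 6.82, SE 0.28), and the neonatal Fc receptor gene Fcgrt from 30.7 ± 8.94 to 226 ± 35.0 CPM (2.88, SE 0.12). Hfe, which regulates iron uptake, and Cd1d1, which presents lipids, rose by 3.06 and 3.80 on the log2 scale. H2-Q6, H2-Q8 and H2-T10 also rose, but 51.8% of the 31-base stretches of H2-Q6 and 61.5% of those of H2-T10 occur in other genes. In the list of loading, trimming and export, 4 of 12 rose and 6 fell. Erap1, which trims peptides in the endoplasmic reticulum, rose by 1.39 (SE 0.09) and the tapasin relative Tapbpl by 1.68 (SE 0.09), whereas Tpp2, a cytosolic peptidase, fell by 1.00 (SE 0.06) and the chaperone partner Pdia3 fell by 0.68 (SE 0.07). Among proteasome activators and assembly factors 4 of 9 rose and 3 fell: Psme1 rose by 2.29 (SE 0.08) and Psme2 by 5.17 (SE 0.12), the latter with 62.6% of its 31-base stretches also in Psme2b, while Psme4 fell by 0.39 (SE 0.06) on the log2 scale. In the constitutive core 8 of 14 rose and 1 fell, with Psma5 at 2.87 (SE 0.09), but 66.5% of the 31-base stretches of Psma5 and 71.7% of those of Psmb5 occur in other genes, mostly pseudogenes. Of 17 tested regulators, 10 rose and 5 fell. The NF-Y subunit gene Nfyc rose by 1.34 (SE 0.07), with 34.3% of its 31-base stretches also in other genes, Irf1 by 1.66 and Irf2 by 0.94 (SE 0.06). Of those with larger adjusted p, the interferon mediators Stat2 and Irf9 rose by 2.75 and 2.37. Another NF-Y subunit gene, Nfya, fell by 0.54 (SE 0.07), so the NF-Y genes did not move in 1 direction. All these calls are by the same edgeR test.

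The next comparison asked whether lines with more Ifit3 at day 8 also had more class I presentation RNA. In the 20 day 8 libraries, all 10 genes were higher where Ifit3 was higher, with slopes of 0.12 to 0.56 log2 units per log2 unit of Ifit3 and adjusted p from 1.9e-07 to 5.9e-04 (edgeR's quasi-likelihood test with Ifit3 as a continuous covariate). Over all genes tested, 21.8% of 13247 rose with Ifit3, and the median slope was 0.277 for the 10 genes and -0.00366 for all. Psmb8 had the steepest slope, 0.56 (SE 0.08), followed by Tap1 at 0.38 (SE 0.04), Nlrc5 at 0.35 (SE 0.07) and Psmb9 at 0.35 (SE 0.06). The surface molecules lay close together, H2-D1 at 0.28 (SE 0.04), H2-K1 at 0.27 (SE 0.04) and B2m at 0.24 (SE 0.03). Psmb10 at 0.23 (SE 0.04), Tap2 at 0.21 (SE 0.02) and Tapbp at 0.12 (SE 0.02) were the shallowest. Neighbours in this order often differ by less than their errors. With the mean log2 level of 22 other interferon-stimulated genes in place of Ifit3, which correlated with Ifit3 at r = 0.987 (n = 20), all 10 genes were called as well. Over all genes, 3114 of 13247 rose with that mean.

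Pearson's r of the log2 level with that of Ifit3 ran from 0.782 for Nlrc5 to 0.936 for Tap1 (permutation p of 7e-05 and 1e-05, the second the smallest that 100000 permutations can give, adjusted p = 8.7e-04 and 2.6e-04 over 13247 genes, n = 20). Spearman's rho was 0.794 and 0.928 for these 2 genes (permutation p of 5e-05 and 1e-05, adjusted p = 4.6e-04 and 1.9e-04). Without the 2 lines farthest from the median Ifit3, B6 and D4, r ran from 0.696 for Tapbp to 0.932 for Tap1. Within the 6 lines of letter D it ran from 0.601 for Nlrc5 to 0.965 for B2m; the other letters hold fewer than 6 lines.

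At day 8 Ifit3 was at 9.79 CPM in B6, 12.9 in D4 and 25.3 in D6, and at 85.0 CPM or more in the other 17 lines. B6 was the lowest line for 9 of the 10 genes and among the 2 lowest for all 10, while D6 was among the 3 lowest for all 10. C2, at 629 CPM of Ifit3, was among the 3 highest for all 10, and A3, at 702 CPM, for 7. Without B6, D4 and D6 together, an alternative chosen after the data were seen, the slopes of all 10 genes were still called in edgeR, beside 21.3% of all genes.

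**Figure D2:**
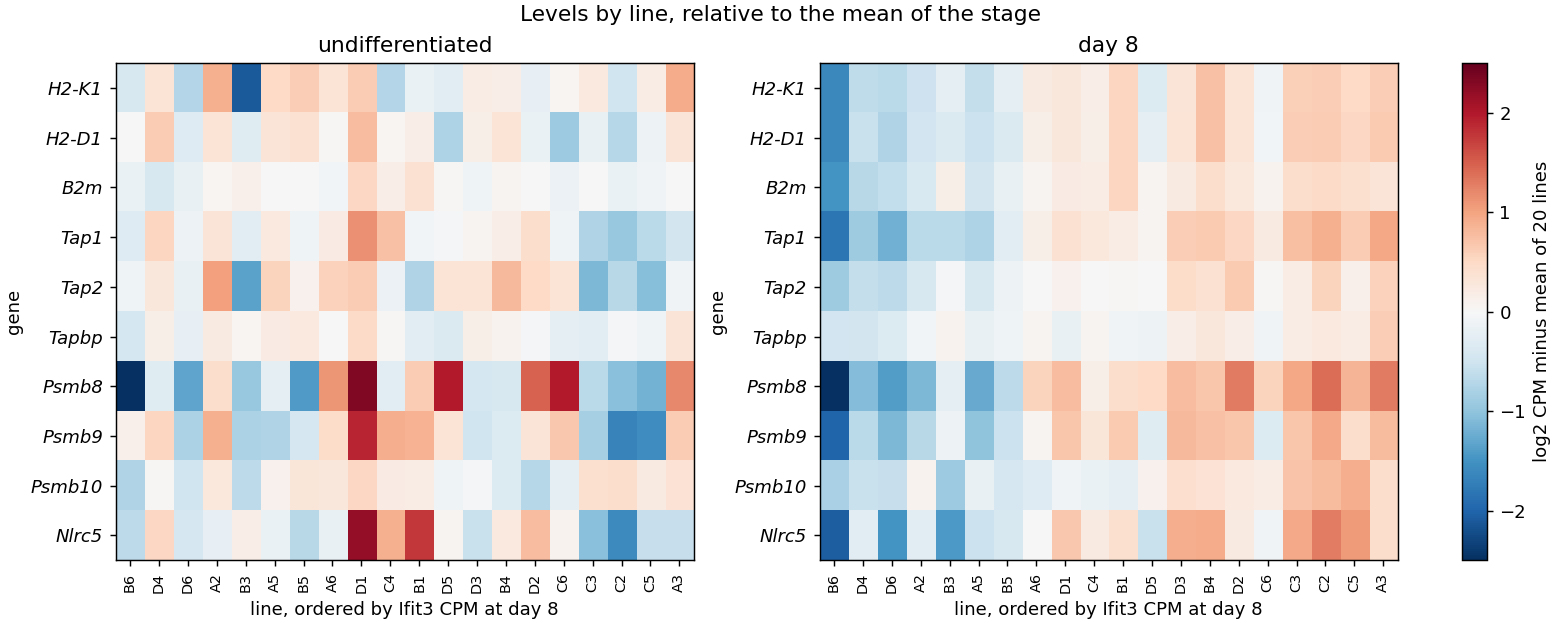
Log2 CPM of each gene minus its mean over the 20 lines of a stage, with lines ordered by Ifit3 at day 8 in both panels (blue below and red above the mean). At day 8 the colours run from low in B6, D4 and D6 to high in C2 and A3 for most genes; the undifferentiated libraries of the same lines do not follow this order, and D1 is high in most rows.

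Other measures moved with Ifit3 at day 8. The share of reads aligned to several places was lowest in C6 and highest, at 14.8%, in D4, and it correlated with Ifit3 at r = -0.893 (n = 20). With that share as a second covariate, chosen after the data were seen, 8 of the 10 genes were still called, against 1.57% of all genes; the slopes of Psmb10 (0.27, SE 0.08, adjusted p = 0.102) and Nlrc5 (0.50, SE 0.15, adjusted p = 0.0997, edgeR) kept their direction and missed the threshold. Markers of preadipocytes and mesenchymal progenitors also rose with Ifit3 in 5 of 6 cases, Pdgfra with a slope of 0.59 (SE 0.09) and Ly6a, itself inducible by interferon, with 0.92 (SE 0.14); the 6 genes summed to 117 to 2580 CPM over day 8 lines. With the mean log2 level of these markers as a second covariate all 10 genes were called, against 5.3% of all genes. Of the leukocyte genes, Lyz2 rose with Ifit3 (slope 0.53, SE 0.13) at a level of 1.60 ± 1.67 CPM, and of the endothelial genes Tek did (1.03, SE 0.19) at 4.02 ± 6.12 CPM; the endothelial markers summed to 0.716 to 32.4 CPM at day 8, and their part in the result was not tested. Mki67, a marker of proliferating cells, was unrelated in level to Ifit3 at day 8 (r = 0.000623).

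Other lists were read against Ifit3 at day 8 in the same test. Over all 13247 genes tested, 21.8% rose with Ifit3 and 2565 fell, so small counts in a list are not read as a trait of that list. All 22 other interferon-stimulated genes and all 10 tested interferon-gamma-type GTPases and targets rose with Ifit3. Of the 13 tested other class I genes, 8 did: H2-M3, which presents formylated peptides, had a slope of 0.49 (SE 0.03), H2-T22 0.33 (SE 0.05) and H2-T23 0.38 (SE 0.08). Of the 31-base stretches of the last 2, 62.1% and 49.0% occur in other genes. The class I-like genes Fcgrt (-0.03, SE 0.03), Hfe (-0.07, SE 0.05), Mr1 (0.02, SE 0.04) and Cd1d1 (-0.02, SE 0.08) did not pass the test, although all 4 had risen with the stage. Among regulators, 6 of 17 rose with Ifit3 and 2 fell, with Stat2 at 0.48 (SE 0.05), Irf9 at 0.36 (SE 0.03) and Irf1 at 0.17 (SE 0.02). Of receptors and kinases 7 of 9 rose and 1 fell. Socs1, a feedback inhibitor, had a slope of 0.50 (SE 0.07), Ifnar2 0.15 (SE 0.03), Ifngr2 0.18 (SE 0.04) and Jak1 0.11 (SE 0.03). The 1 that fell was Ifngr1 (-0.11, SE 0.04), so the chains of the interferon gamma receptor went in opposite directions. Calreticulin (Calr, 0.09, SE 0.02) and Pdia3 (0.13, SE 0.03), 2 of 12 in the loading list, rose with Ifit3 as well, and Lnpep, 1 of 12, fell (-0.15, SE 0.04).

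Of the interferon genes themselves, none reached the filter on low counts. Ifnb1, which encodes interferon beta, had 13 counts over the 20 undifferentiated and 250 over the 20 day 8 libraries. At day 8 it had 41 counts in C2, 40 in C5, 33 in C3 and 26 in A3, and 1 in A5, 1 in D6, 0 in D4 and 0 in B6, where 3 counts would be 0.0699 CPM. Ifng had 1 count before and 0 at day 8. Limits of this kind cover counting error only.

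In undifferentiated libraries, at an Ifit3 level of 0.0866 to 7.66 CPM, 2 of the 10 genes rose with Ifit3, against 2.26% of 12409 genes tested. Nlrc5 had a slope of 0.49 (SE 0.08, adjusted p = 0.00145) and B2m of 0.11 (SE 0.02, adjusted p = 0.00495, edgeR). Line D1, the highest in Ifit3, was also the highest in 8 of the 10 genes, and among the 3 highest in all 10. Without D1 the edgeR adjusted p of B2m was 0.0551 and 1 of the 10 was called, beside 146 of 12273 genes. Without D1 and B1 together, chosen after the data were seen, 0 of 10 were called in edgeR, beside 49 of 12291 genes. The slopes were then 0.29 for Nlrc5 (adjusted p = 0.244) and 0.07 for B2m (adjusted p = 0.260). Pearson's r was 0.763 for Nlrc5 and 0.781 for B2m (permutation p of 8e-05 and 1.2e-04, adjusted p = 0.0160 and 0.0196 over 12409 genes, n = 20) and 0.544 and 0.575 without D1 and B1. Spearman's rho was 0.653 and 0.635 (permutation p of 0.00246 and 0.0033, adjusted p = 0.119 and 0.123). Tap1 (slope 0.18, SE 0.07, adjusted p = 0.147) and Psmb9 (0.25, SE 0.11, adjusted p = 0.202) did not pass, and H2-K1 (-0.07, SE 0.10) and Tap2 (-0.04, SE 0.10) had slopes below 0. In the same test, 10 of the 13 tested interferon-stimulated genes and 5 of the 7 interferon-gamma-type genes rose with Ifit3, as did 1 of 8 other class I genes (H2-T23, 0.30) and 1 of 16 regulators (Irf9, 0.33). With the other interferon-stimulated genes in place of Ifit3 (r = 0.936 between them), the calls were again B2m and Nlrc5, beside 467 of 12409 genes. Cell type markers moved with Ifit3 at this stage too. The mean of the progenitor markers had an r of 0.722 with Ifit3 (n = 20), Ly6a rose with a slope of 0.68 (SE 0.15, adjusted p = 0.0153), and the adipocyte genes Fabp4 (-0.67, SE 0.17, adjusted p = 0.0317) and Dgat2 (-0.16, SE 0.04, adjusted p = 0.0439, edgeR) fell; their part in the result was not tested.

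**Figure D3:**
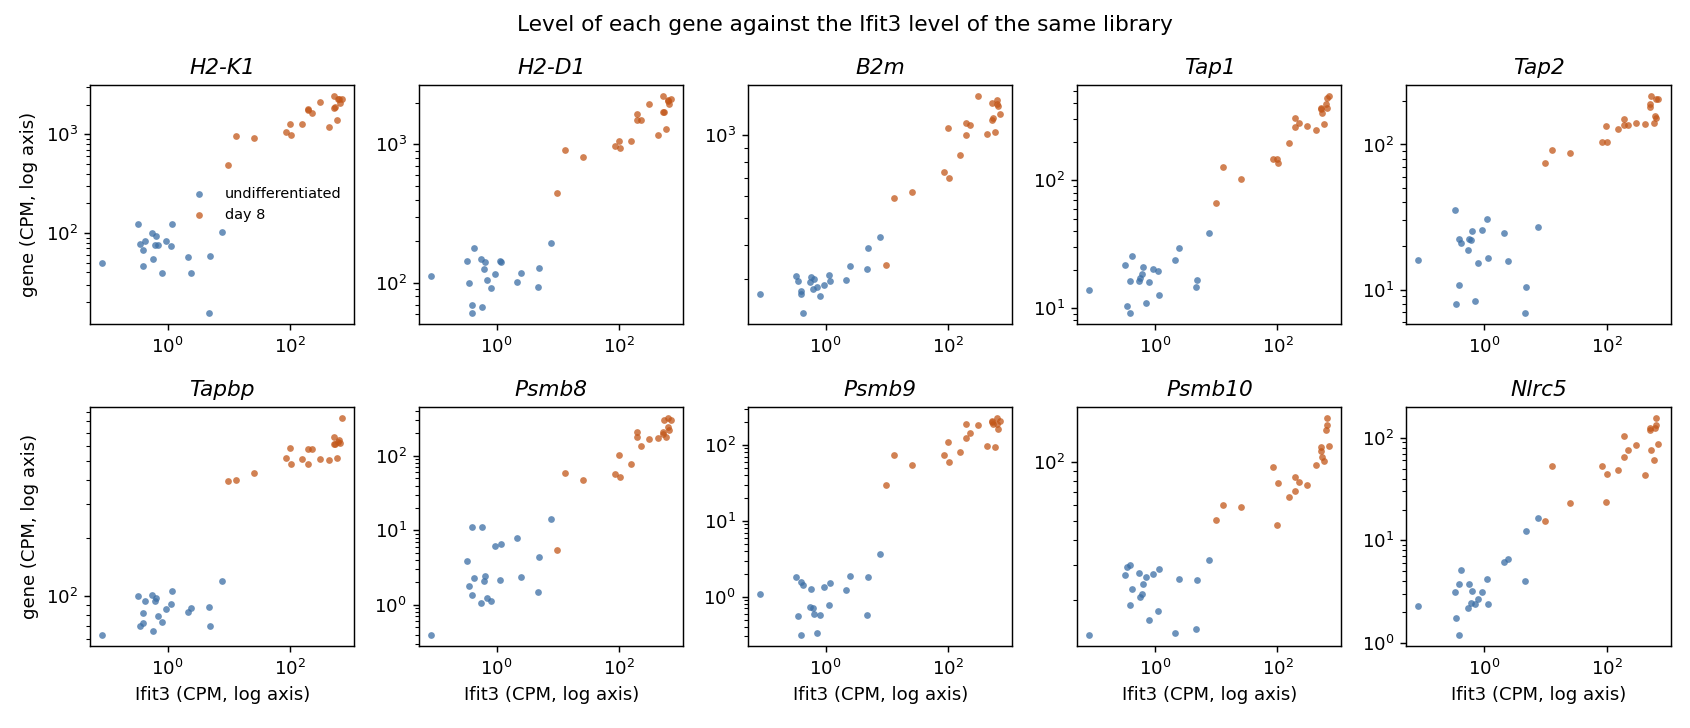
CPM of each gene against CPM of Ifit3 in the same library, both on log axes, for 20 undifferentiated (blue) and 20 day 8 (orange) libraries. All 10 genes climb with Ifit3 at day 8; among undifferentiated libraries the clearest climbs are those of Nlrc5 and B2m, with D1 at the right end.

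Whether the slope itself differed between stages was tested with an interaction term. It was steeper at day 8 for 5 of the 10 genes, against 12.2% of 14080 genes called steeper. The difference, day 8 minus undifferentiated, was 0.34 for H2-K1 (SE 0.10, adjusted p = 0.0175), 0.20 for H2-D1 (SE 0.07, adjusted p = 0.0465), 0.13 for B2m (SE 0.04, adjusted p = 0.0147), 0.20 for Tap1 (SE 0.07, adjusted p = 0.049989) and 0.20 for Psmb10 (SE 0.07, adjusted p = 0.0436, edgeR). With the line as a replicate block the other 4 were called and Psmb10 was not (0.04, SE 0.07, adjusted p = 0.784, edgeR), while over all genes 471 were called steeper in place of 1721. With RLE scaling 2 of the 10 were called, beside 1597 of 14080 genes, and without the count filter 2, beside 1616 of 22845. Without B6, D4 and D6 it was 2 of the 10, beside 18.6% of 14027 genes, so there the 10 genes stood near the share of all genes. The other genes did not pass: Nlrc5 had a difference of -0.15 (SE 0.11, adjusted p = 0.328), Psmb9 0.09 (SE 0.12), Psmb8 0.25 (SE 0.20), Tap2 0.25 (SE 0.10, adjusted p = 0.0673) and Tapbp 0.05 (SE 0.04).

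**Figure D4:**
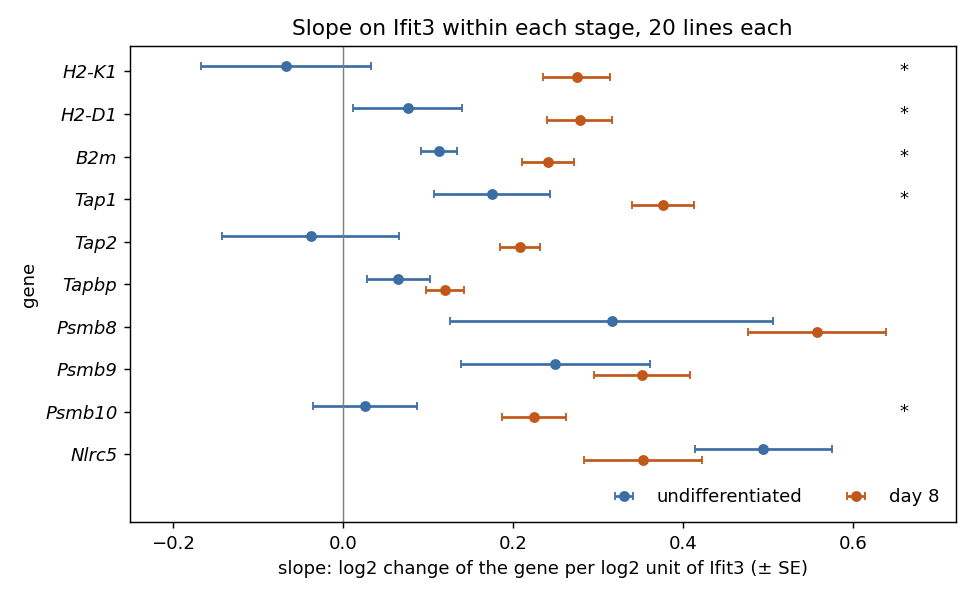
Slope of each gene on Ifit3, as log2 change per log2 unit of Ifit3, with its SE from edgeR, in 20 undifferentiated (blue) and 20 day 8 (orange) libraries. Asterisks mark the 5 genes (H2-K1, H2-D1, B2m, Tap1 and Psmb10) whose slopes differed between stages at an adjusted p under 0.05.

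The 10 genes also varied together more at day 8. Over their 45 pairs, r between log2 levels across the 20 lines had a median of 0.387 (from -0.0364 to 0.771) in undifferentiated and of 0.891 (from 0.657 to 0.995) in day 8 libraries; these are descriptions, and the genes of a pair share library and scaling. H2-K1 and H2-D1 had an r of 0.525 before and 0.995 at day 8, and they share sequence. H2-K1 and B2m, on different chromosomes and with 0% of the 31-base stretches of B2m found elsewhere, went from -0.00471 to 0.955. Tap1 and Psmb9, with their common promoter, were correlated at both stages, 0.735 and 0.940. Nlrc5 had an r of -0.0192 with H2-K1 before and 0.892 at day 8, and 0.771 and 0.908 with Tap1. Psmb10 was the least tied of the 10 at day 8, with a median r of 0.719 to the others, and Tapbp followed with 0.788.

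Among all other genes averaging 5 CPM or more, those most like the mean of the 10 at day 8 were Ifih1 (r = 0.969), which encodes the RNA sensor MDA5, Ddx60 (0.968), 2010002M12Rik (0.967), Usp18 (0.965), which removes the ubiquitin-like ISG15, and Rtp4 (0.964), over 20 lines. Ifit3 was number 52 of 10826 by this measure, at 0.916. In undifferentiated libraries the first was Ube2l6 (0.760), which encodes the enzyme that conjugates ISG15, followed by BC006779 (0.705), Scamp5 (0.703), Gm6548 (0.697) and Ndufc1 (0.675), and Ifit3 had an r of 0.444.

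The level of a line before differentiation was then set against its level at day 8. Of the 10 genes, 1 was positively correlated between stages, Psmb8 (r = 0.563, permutation p = 0.00796, adjusted p = 0.0372, n = 20), against 23.6% of 14081 genes. Its rho was 0.280 (permutation p = 0.232, adjusted p = 0.412), and r was 0.321 without D1 and B6. The median r was 0.0966 for the 10 genes and 0.321 for all genes. Psmb10 (r = 0.446, permutation adjusted p = 0.136) and B2m (0.439, adjusted p = 0.152) came next, and Tap1 (-0.164) was the lowest. Line C2 was the lowest of 20 in Tap1 (9.10 CPM), Psmb9 (0.309 CPM) and Nlrc5 (1.19 CPM) before differentiation and reached 437, 228 and 156 CPM at day 8. D1, the highest before, had a median rank of 12.5 among 20 at day 8, where rank 20 is the highest. The day 8 level of the 10 genes was also not called against the Ifit3 of the undifferentiated line, with 0 of 10 in edgeR, DESeq2 and limma-voom, against 0.0302% of all genes in edgeR; 0 of 10 had an unadjusted p under 0.05, and the smallest was 0.0582 for B2m.

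Extent of adipocyte conversion was the last covariate, as the mean log2 level of 14 adipocyte genes at day 8. No class I gene was called in either direction, 0 of 10 in edgeR, DESeq2 and limma-voom, against 25.6% of genes positive and 21.2% negative in edgeR, and 0 of 10 had an unadjusted p under 0.05 (the smallest was 0.236, Psmb10). This rested on C6 and D5, the lines of least conversion: without both, Tap1 (-1.01, adjusted p = 0.0347), Tap2 (-0.65, adjusted p = 0.0225), Tapbp (-0.52, adjusted p = 0.00316) and Psmb10 (-0.85, adjusted p = 0.00932) fell as the score rose. Over all genes, 2578 of 13117 were called negative in that edgeR fit. With Ifit3 as a second covariate over all 20 lines, H2-K1 (0.15, adjusted p = 0.0293), H2-D1 (0.14, adjusted p = 0.0409) and Psmb9 (0.24, adjusted p = 0.0182) rose with the score. Over all genes, 2751 of 13234 rose with the score in that edgeR fit, so these calls are not read as a trait of the 10 genes. The score itself had an r of -0.397 with Ifit3 at day 8. With the score as a second covariate all 10 slopes on Ifit3 at day 8 were called, beside 2260 of 13247 genes.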

How the data were processed

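A stranded poly(A) kit and paired reads of 100 bp were used, per the labels' protocols. The submitters' processing notes name STAR, HTSeq and mm9; versions, annotation and strand setting were not given in the sources used here. The deposited values are raw counts per gene symbol, 1 file per library. Tally rows were left out (no-feature reads were 7.17% and 4.77% of tallied reads, ambiguous reads 3.27% and 3.69%, at the 2 stages). Of 29912 symbols shared by all files, 125 differing from another only in letter case were left out.

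The tests ran in R 4.3.3 using edgeR 4.0.16 (filterByExpr, minimum count 10; TMM; quasi-likelihood F-test; Benjamini-Hochberg over all tested genes, threshold 0.05), with DESeq2 1.42.0 and limma 3.58.1 (voom) as alternatives. Stage was fitted over 40 libraries, Ifit3 as a covariate (log2 CPM, prior count 2) over 20, and the slope difference over 40 with Ifit3 centred by stage. SEs come from the F statistic. Correlations used 100000 permutations of lines, two-sided. The line label pairs the stages, since a line has the same label at both; deviations of its 2 libraries from their stage means correlated at 0.072 to 0.545. The labels name no separate cultures within a line. The code was tested on simulated data.

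The 10 genes and all lists were chosen with earlier results of these data known. Genes named are the 10, from each list up to 4 with the smallest adjusted p in the comparison described, and the 5 most like the mean of the 10 per stage. Genes named beside these (constitutive partners of the inducible subunits, paralogs, genes without a call, some further members of the lists, and the marker genes) were chosen after their values were seen. A gene that the rule names is not reported here. Shared sequence was counted over GENCODE M21 protein-coding transcripts of each gene against transcripts of other genes, both strands; since that build is not mm9, no position of the counted genes is given from it.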

Additional observations from a re-analysis of the deposited data

Results flagged for a closer look

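The slope on Ifit3 was steeper at day 8 than in undifferentiated libraries for 5 genes by the interaction test in edgeR, which is what singled them out. The difference in slope (log2 units per log2 unit of Ifit3, 20 lines per stage) was 0.341 for H2-K1, 0.201 for H2-D1, 0.128 for B2m, 0.200 for Tap1 and 0.198 for Psmb10. Ifit3 spanned 0.0866 to 7.66 CPM before and 9.79 to 702 CPM at day 8, so the ranges compared do not overlap, and the differing counting of the stages cannot be told apart from the stage. For Tap1 the adjusted p was 0.049989.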

How the results depend on the processing

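All 10 rises with the stage, and all 10 positive slopes on Ifit3 at day 8, were called with DESeq2, limma-voom, RLE scaling, no count filter and without C6 and D5, and with each line left out in turn (200 of 200 values each). Over all genes, DESeq2 called 6062 of 14081 rises and 3013 of 13247 positive slopes. Of the same genes, limma-voom called 5964 and 2896, and RLE scaling 6047 and 2847. The counts were 8163 of 22846 and 3887 of 21927 without the filter. Without C6 and D5 they were 6116 of 14005 and 2611 of 13130. The slope difference was called for 5 genes, beside 12.2% of all genes. It was called for 2 with RLE scaling (1597 of 14080 genes) and 2 without the count filter (1616 of 22845 genes). An alternative chosen after the data were seen, without B6, D4 and D6, called 2, beside 18.6% of all genes. DESeq2 called 6 (1860 of 14080 genes), and limma-voom 5 (1541 of 14080 genes), with H2-D1 lost at an adjusted p = 0.0559 and Tap2 gained at 0.0405. The fit without C6 and D5 called 4 (1347 of 14004 genes), with Tap1 lost at 0.0527. The paired fit (line as replicate block) called 4, all but Psmb10, beside 471 of 14080 genes. That block changed no other call of the 10 genes and gave 10 for the stage, beside 6184 of 14081 genes. In undifferentiated lines 1 to 2 genes were called with each line left out, 1 of them without D1, beside 146 of 12273 genes. Without D1 and B1 together (chosen after the data were seen) 0 were called, beside 49 of 12291 genes. Without C6 and D5, or with Mki67 as a second covariate, Psmb8 was called too (edgeR adjusted p = 0.0360 and 0.0423). Over all genes, 428 of 12298 and 349 of 12409 were called positive in these 2 fits. Against the adipocyte score, 4 genes were called negative without C6 and D5, beside 2578 of 13117 genes. With Ifit3 as a second covariate 3 were called positive, beside 2751 of 13234 genes. Between the stages of a line, 0 were called by Spearman's rho and 0 without C6 and D5 (Psmb8 permutation adjusted p = 0.0609). Over all genes, 2437 of 14054 and 2414 of 14081 were called there, in either direction. The causes were not tested. Psmb8, Psmb9, Nlrc5 and Ifit3 had as few as 9, 7, 27 and 2 counts in an undifferentiated library, which limits their slopes there.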

Other observations

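Class II presentation, which serves professional antigen-presenting cells, was also looked at. Of 8 genes in the list, 3 were tested for the stage and all 3 rose in edgeR: Cd74, the invariant chain, from 0.666 ± 0.622 to 27.5 ± 15.1 CPM (log2 fold change 5.35, SE 0.35), H2-DMb1 from 1.05 ± 0.734 to 10.7 ± 5.84 CPM (3.34, SE 0.34; 37.6% of its 31-base stretches also lie in other genes) and H2-DMa from 2.65 ± 0.853 to 5.64 ± 2.08 CPM (1.09, SE 0.16). Only 1 of these 3, H2-DMa, passed the filter on low counts in undifferentiated libraries. Cd74 and H2-DMb1 entered the test through their day 8 counts, so their rise was largely fixed by the filter. The class II chains stayed near the floor, with H2-Ab1 at 59 counts over the 20 undifferentiated and 244 over the 20 day 8 libraries, H2-Aa at 2 and 23, and the class II transactivator Ciita at 58 and 120. Across day 8 lines the slopes on Ifit3 were 0.23 for Cd74 (SE 0.09, adjusted p = 0.0533), 0.07 for H2-DMb1 (SE 0.11) and 0.10 for H2-DMa (SE 0.06), none past the threshold.

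Among chemokines that interferon gamma is known to raise, Cxcl9 went from 0.112 ± 0.0959 to 39.0 ± 41.8 CPM and Cxcl10 from 16.0 ± 10.1 to 125 ± 99.7 CPM between the stages, and their slopes on Ifit3 at day 8 were 1.01 (SE 0.10) and 0.77 (SE 0.08).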
